A study of Mus musculus with 2 samples.

Results

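The classical type I interferon-stimulated genes and their signalling components were examined in splenic CD4+ T cells of DBA/1 and C57BL/6 mice. The set was given as 34 gene symbols: the receptor and its kinases, STAT and IRF transcription factors, feedback inhibitors, antiviral effectors and nucleic acid sensors, without the Gbp, Irg and Ifi200 families and with Trim25 as the only Trim gene. Of these, 30 had at least 1 probe set that carried their symbol alone, with 40 such probe sets in all, out of 12393 genes and 22690 probe sets on the array. Ifi44, Xaf1 and Dtx3l had none, and the probe set annotated to Isg15 also names another gene, so these 4 genes have no value here.

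Both samples were CD4+ T cells isolated from spleen by magnetic sorting, taken at day 7 from mice immunised with GPI (glucose-6-phosphate isomerase), an antigen that induces arthritis. The first sample came from DBA/1 mice, the susceptible strain, and the second from C57BL/6 mice, the resistant strain. Each strain was hybridised to 1 array. The number of mice behind each RNA sample and their age are not given in these sources, and no unimmunised mice were analysed here, so a strain difference present before immunisation and one that followed it cannot be told apart.

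Type I interferons bind a receptor of the chains IFNAR1 and IFNAR2, which carry the kinases TYK2 and JAK1. The kinases phosphorylate STAT proteins, and the complex ISGF3, which contains STAT2 and IRF9, then binds interferon-stimulated response elements (ISREs) in the promoters of many antiviral genes. In T cells the response restrains viral replication and also shapes proliferation and differentiation, and it is shut down by inhibitors such as USP18 and SOCS1.

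Promoters are shown for 5 members to place the regulatory element beside the values below. Rsad2 had the lowest ratio of DBA/1 over C57BL/6 among members over the floor (each array's median signal) on both arrays, Oas1a and Ifit1 stand for the OAS and IFIT families, and Socs1 and Irf7 are inhibitor and activator examples with and without a match. The windows are RefSeq sequences of the build GRCm38.p6, which is a C57BL/6J genome, and run 5′ to 3′ on the strand of the gene, from 250 bases before to 50 bases after the transcription start. Capitals mark matches to the core of the ISRE, GAAANNGAAA, on either strand. Rsad2 (chr12:26456403-26456702, minus strand), Oas1a (chr5:120907476-120907775, minus strand) and Ifit1 (chr19:34640639-34640938, plus strand) hold a match and read lower in DBA/1. Socs1 (chr16:10785487-10785786, minus strand) holds a match and was close to the floor on both arrays, and Irf7 (chr7:141266375-141266674, minus strand) holds none and read lower.
Rsad2: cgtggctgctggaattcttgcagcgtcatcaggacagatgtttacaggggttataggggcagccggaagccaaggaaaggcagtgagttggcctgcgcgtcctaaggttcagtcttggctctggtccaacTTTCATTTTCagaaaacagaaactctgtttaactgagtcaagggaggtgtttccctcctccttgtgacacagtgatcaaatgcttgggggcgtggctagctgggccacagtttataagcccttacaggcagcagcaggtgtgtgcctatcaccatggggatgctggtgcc
Oas1a: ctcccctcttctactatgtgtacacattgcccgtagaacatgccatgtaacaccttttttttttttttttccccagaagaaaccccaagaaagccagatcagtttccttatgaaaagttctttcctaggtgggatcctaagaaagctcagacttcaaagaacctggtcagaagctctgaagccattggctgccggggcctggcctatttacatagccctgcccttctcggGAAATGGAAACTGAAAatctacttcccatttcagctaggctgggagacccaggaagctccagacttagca
Ifit1: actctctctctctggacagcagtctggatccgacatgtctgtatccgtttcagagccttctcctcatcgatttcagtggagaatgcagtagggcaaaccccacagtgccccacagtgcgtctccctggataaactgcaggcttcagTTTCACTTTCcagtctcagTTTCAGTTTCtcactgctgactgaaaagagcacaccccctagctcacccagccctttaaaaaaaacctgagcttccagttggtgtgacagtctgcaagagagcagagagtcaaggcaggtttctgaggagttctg
Socs1: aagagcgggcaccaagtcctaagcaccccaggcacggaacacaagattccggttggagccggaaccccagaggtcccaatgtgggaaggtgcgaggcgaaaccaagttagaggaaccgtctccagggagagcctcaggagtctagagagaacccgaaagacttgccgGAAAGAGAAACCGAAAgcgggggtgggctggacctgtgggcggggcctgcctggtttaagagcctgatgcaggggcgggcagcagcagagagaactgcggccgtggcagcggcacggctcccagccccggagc
Irf7: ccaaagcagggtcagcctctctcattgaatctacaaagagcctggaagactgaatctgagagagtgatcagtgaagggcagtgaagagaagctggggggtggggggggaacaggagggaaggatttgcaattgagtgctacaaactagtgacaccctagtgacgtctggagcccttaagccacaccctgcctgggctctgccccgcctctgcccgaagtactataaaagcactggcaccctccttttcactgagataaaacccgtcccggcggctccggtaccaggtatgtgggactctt

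The match in Rsad2 began 120 bases before the start. Ifit1 holds separate matches that began 104 and 85 bases before the start. In Oas1a and Socs1 neighbouring matches overlap into a repeat of 3 GAAA units, which began 20 bases before the start of Oas1a and 83 bases before that of Socs1. A promoter was in the RefSeq table for 26 of the 34 members, and 10 of the 26 (38.5%) held a match in at least 1 window, against 3.99% of the 27025 genes in the table. The 10 were Ifih1, Ifit1, Ifit3, Irf2, Isg15, Oas1a, Oas3, Rsad2, Socs1 and Stat2, and none of the 4 receptor and kinase genes was among them. The core of the gamma-activated site, TTCNNNGAA, which reads the same on both strands, was present in 8 of 26 members (30.8%), against 9.55% of all genes. No match of one motif overlapped a match of the other in the members. Of the members over the floor on both arrays, all 8 with an ISRE core match read lower in DBA/1 (median log2 ratio -0.57), as did 7 of 11 without one (median -0.18), beside 38.9% of all such genes. The 11 include the 4 receptor and kinase genes, so the groups also differ in the roles of their genes. Members without a promoter window, such as Usp18 and Rtp4, are in neither group. The difference between members with and without a match was not tested. A match describes letters of the reference sequence only.

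The deposited values are linear MAS5 signals (intensity units) of an Affymetrix array. Each array's median signal, 37.6 in DBA/1 and 38.04 in C57BL/6, served as its floor. A ratio is log2 of DBA/1 over C57BL/6, and where 1 signal lay under the floor it is a bound, written "at least". There are no replicates, so no value has a biological error and no test was possible. The nearest repeat measurement, another probe set for 1 gene, gave an error of 0.31 on the log2 scale per probe set over 2325 genes, and 0.29 over the 1000 of them whose mean signal lay within the interquartile range of the members (108 to 289). It covers probe error only. The arrays were not on 1 scale: the median log2 ratio of all 6402 genes over the floor on both arrays was 0.10.

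The interferon-induced members are the 30 outside the receptor and kinase group. Of the 22 over the floor on both arrays, 20 read lower in DBA/1 than in C57BL/6 CD4+ T cells. The 4 receptor and kinase genes had a median log2 ratio of -0.05, or -0.13 after median centring. That median includes Ifnar2, whose probe sets disagree in direction. The difference between these groups of members was not tested. Of the 26 members over the floor on both arrays, 22 read lower in DBA/1, where 38.9% of all such genes did (48.0% after centring on the median of all probe sets over the floor on both arrays). Among the 22, Jak1, Tyk2, Stat2, Irf1, Socs1, Trim25, Zbp1 and Ifi27l2a differed by less than the probe set error of 0.31 on their brightest probe sets. At least 2-fold lower were 5 of the 26, against 1.64% of all such genes: Rsad2, Usp18, Oas1a, Rtp4 and Irf7. Usp18, Oas1a and Irf7 had 1 probe set each. Sequence differences between the strains at the probe sites were not examined for any gene. On the log2(signal + 32) scale, Rsad2 and Usp18 stayed past 2-fold, while the log2 ratios of Oas1a, Rtp4 and Irf7 became -0.90, -0.95 and -0.86. None of the 26 was at least 2-fold higher, against 3.33% of all such genes. The median log2 ratio of the 26 was -0.39, while that of all genes over the floor on both arrays was 0.10. Among genes of similar brightness, within that interquartile range of 108 to 289, 12 of 15 members and 39.5% of 2395 genes read lower, with medians of -0.59 and 0.09. In this range 5 of the 15 were at least 2-fold lower, against 1.96% of the genes.

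The remaining 4 measured members were under the floor on 1 or both arrays. Oas3, Oasl1 and Oasl2 were over the floor in C57BL/6 only, as were 1.86% of all 12393 genes, and no member was over it in DBA/1 only, as were 2.45%. A gene that passes on 1 array has to differ, so these 3 are given apart from the counts above. With them, as bounds, 6 of 29 members were at least 2-fold lower in DBA/1, against 1.90% of the 6936 genes over the floor on 1 array or more, and no member was at least 2-fold higher, against 3.84% of those genes. Mx2 was under the floor on both arrays.

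**Figure D1:**
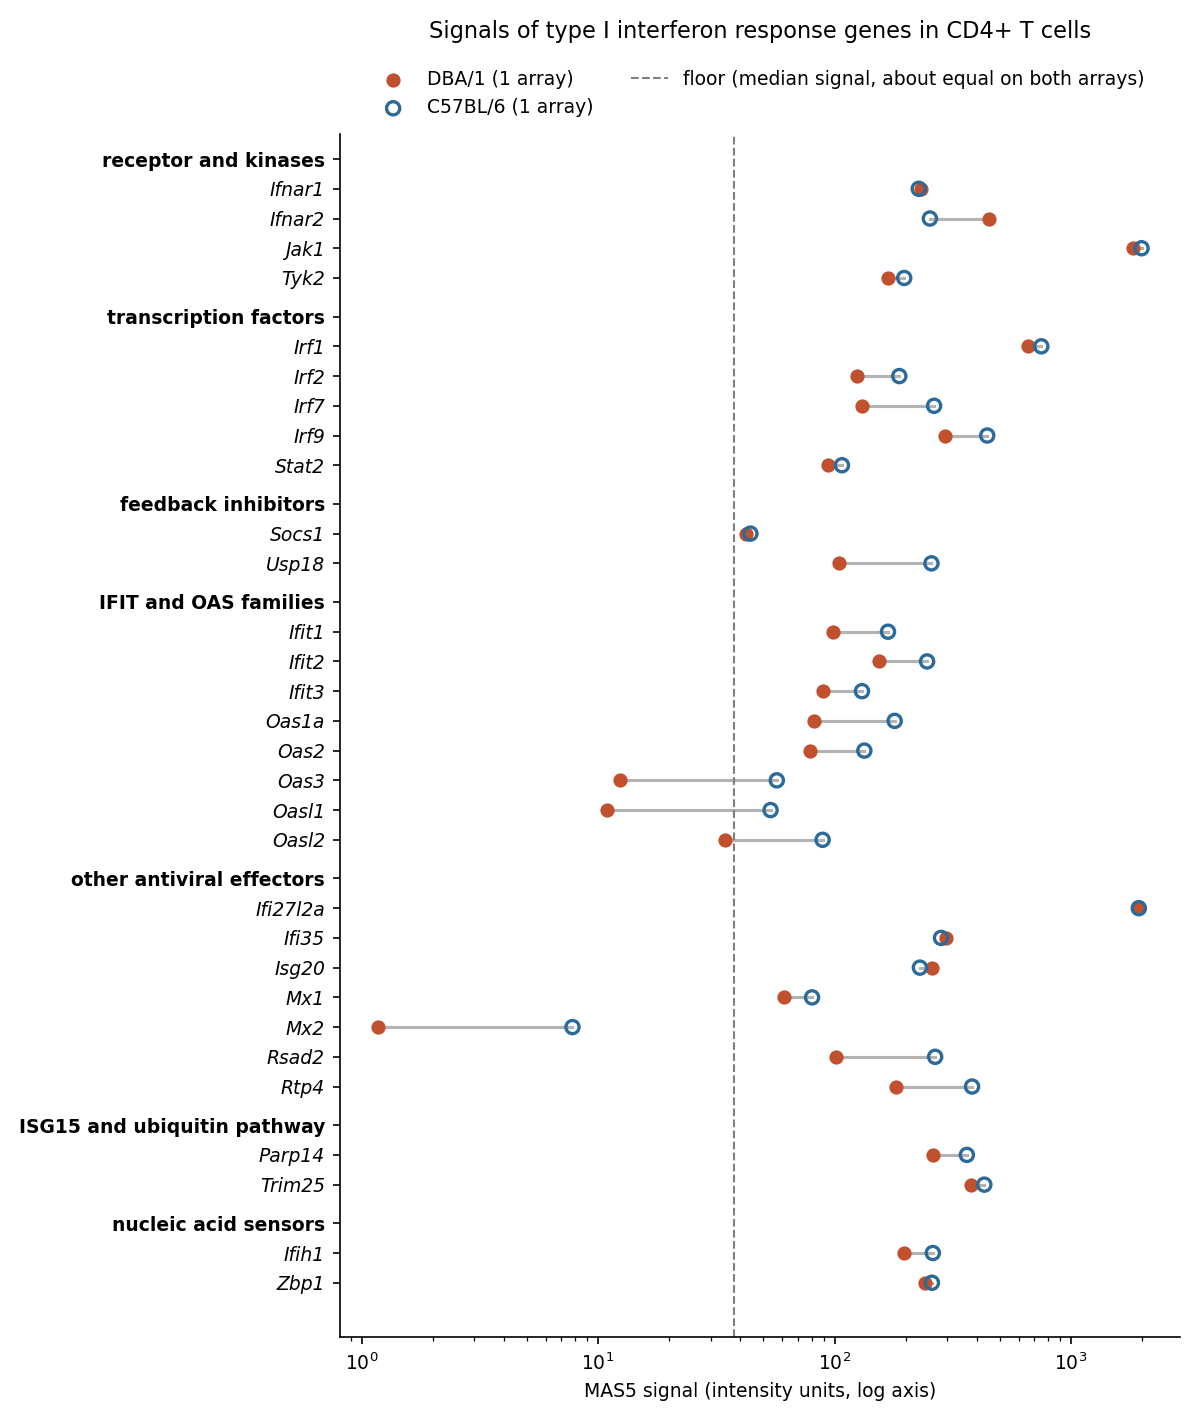
MAS5 signal (log axis) of the 30 measured members in DBA/1 (filled) and C57BL/6 (open), 1 array each, grouped by role, with a dashed line at the floor near 38. The filled point lies left of the open one for 26 members, by a hair for Ifi27l2a and with Mx2 under the floor, and right of it for Ifnar1, Ifnar2, Isg20 and Ifi35, of which Ifnar1 and Ifi35 changed sign when the arrays were rescaled.

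Over the 4 receptor and kinase genes the median log2 ratio was -0.05. Ifnar1, the chain bound by TYK2, read 231 in DBA/1 and 227 in C57BL/6, a log2 ratio of 0.03 that turned negative under the 3 rescalings of the arrays. Jak1 read 1821 in DBA/1 and 1986 in C57BL/6 (log2 ratio -0.13), and its other probe sets lay at -0.03 and -0.29. Tyk2 read 168 in DBA/1 and 197 in C57BL/6 (-0.23). The differences of Ifnar1, Tyk2 and all Jak1 probe sets were smaller than the probe set error of 0.31.

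Ifnar2, which encodes the chain that binds JAK1 and whose transcripts include membrane and soluble forms, gave opposite results on its probe sets. The brighter one read 448 in DBA/1 and 253 in C57BL/6, 1.77-fold higher in DBA/1 (log2 ratio 0.82). The dimmer one read 84.3 in DBA/1 and 163 in C57BL/6, 1.93-fold lower in DBA/1 (-0.95). Both were over the floor on both arrays, and both differences exceeded the probe set error. Averaged over the probe sets the log2 ratio of Ifnar2 was -0.06. Which transcripts each probe set detects is not stated in these sources, so a direction for the gene as a whole cannot be stated.

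All 5 transcription factors read lower in DBA/1, beside 38.9% of all genes over the floor on both arrays. Their log2 ratios ran from -0.18 to -1.01, with a median of -0.59. Irf7, the factor that amplifies interferon alpha production and is itself induced by interferon, read 131 in DBA/1 and 264 in C57BL/6, 2.02-fold lower in DBA/1. Irf9, the DNA-binding subunit of ISGF3, read 292 in DBA/1 and 442 in C57BL/6 (-0.60). Its partner Stat2 differed less, with 93.8 in DBA/1 and 107 in C57BL/6 (-0.20) and -0.34 on a second, dimmer probe set. Irf2, which antagonises IRF1 at shared sites, read 125 in DBA/1 and 188 in C57BL/6 (-0.59). The only Irf2 probe set carries a suffix that marks possible cross-hybridisation. Irf1, an activator that responds to interferon gamma as well, was the brightest of the group, at 659 in DBA/1 and 749 in C57BL/6 (-0.18). The differences of Irf1 and of the brighter Stat2 probe set were within the probe set error.

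Of the feedback inhibitors, Usp18, which removes ISG15 from proteins and blocks signalling at IFNAR2, read 104 in DBA/1 and 257 in C57BL/6, 2.46-fold lower in DBA/1 (log2 ratio -1.30). Socs1, an inhibitor of JAK kinases, was close to the floor at 42.1 in DBA/1 and 44.1 in C57BL/6 (-0.07), so a difference in it was hardly measurable on these arrays.

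The IFIT and OAS genes encode families of proteins that act on viral RNA. All 5 that were over the floor on both arrays read lower in DBA/1 (median log2 ratio -0.76), beside 38.9% of all such genes. The other 3 were over the floor in C57BL/6 only. The IFIT proteins bind foreign RNA and block its translation. Ifit1 read 98.6 in DBA/1 and 168 in C57BL/6 (log2 ratio -0.77), Ifit2 read 154 in DBA/1 and 246 in C57BL/6 (-0.68), and Ifit3 read 89.7 in DBA/1 and 131 in C57BL/6 (-0.54). The 3 genes thus differed by 1.46-fold to 1.71-fold, each by more than the probe set error and by less than 2-fold.

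The OAS enzymes make oligoadenylates that activate RNase L. Oas1a read 81.6 in DBA/1 and 180 in C57BL/6, 2.20-fold lower in DBA/1, and Oas2 read 78.7 in DBA/1 and 134 in C57BL/6, 1.70-fold lower. For the remaining OAS genes the ratios are bounds. Oas3 read 12.4 in DBA/1 and 56.98 in C57BL/6, at least 1.52-fold lower in DBA/1. Oasl1, an OAS-like protein that limits IRF7 translation in mice, read 10.9 in DBA/1 and 53.6 in C57BL/6, at least 1.43-fold lower. Oasl2 read 34.4 in DBA/1 and 89.0 in C57BL/6, at least 2.37-fold lower, with the DBA/1 signal just under the floor. With the floor at percentile 60 the Oasl2 bound shrank to -0.27 on the log2 scale, which ends its 2-fold call. Each OAS gene was represented by 1 probe set, and the family is made of close paralogues, so cross-hybridisation between them was not tested.

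**Figure D2:**
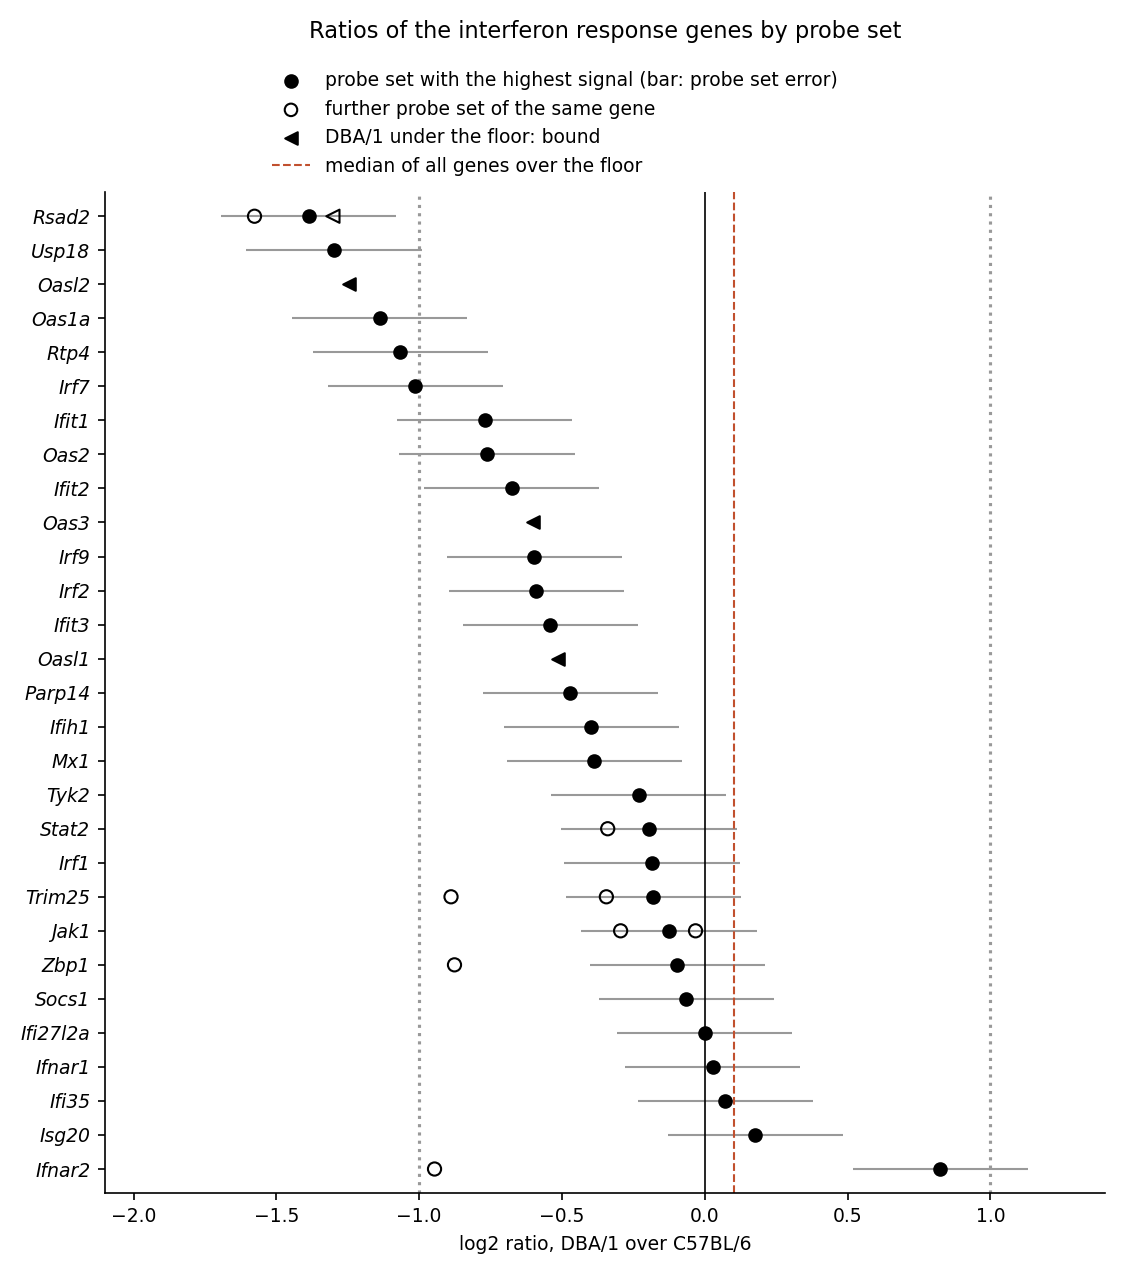
Log2 ratio of DBA/1 over C57BL/6 for every probe set over the floor of 29 members, ordered by ratio, where filled points are the brightest probe set of a gene, open points further ones, triangles bounds and bars the probe set error of 0.31. Rsad2 lies lowest at -1.39, with its other probe sets at -1.58 and at most -1.30, while the probe sets of Ifnar2 lie on opposite sides of 0.

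The other antiviral effectors ranged from clearly lower to equal. Rsad2 (viperin), an enzyme that makes a chain-terminating nucleotide, had the lowest ratio of the members over the floor on both arrays, with 102 in DBA/1 and 266 in C57BL/6, 2.62-fold lower in DBA/1. Its second probe set read 39.6 in DBA/1 and 118 in C57BL/6 (log2 ratio -1.58), and its dimmest one read 30.6 in DBA/1, under the floor, and 92.6 in C57BL/6, at least 2.47-fold lower. All 3 Rsad2 probe sets were thus more than 2-fold lower in DBA/1. Rtp4, an interferon-induced chaperone-like protein, read 182 in DBA/1 and 381 in C57BL/6, 2.09-fold lower, and its second probe set was under the floor on both arrays. Mx1, a dynamin-like GTPase that blocks influenza virus and is defective in most laboratory strains, C57BL/6 included, read 61.4 in DBA/1 and 80.3 in C57BL/6 (-0.39). With the floor at percentile 60 the log2 ratio of Mx1 became a bound of -0.12, smaller than the probe set error. Its relative Mx2 read 1.17 in DBA/1 and 7.79 in C57BL/6, both far under the floor, so no fold is given.

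In contrast, 3 effectors did not differ by more than the probe set error. Ifi27l2a, the brightest effector, read 1932 in DBA/1 and 1933 in C57BL/6, a log2 ratio that rounds to 0. Ifi35, which pairs with NMI, read 296 in DBA/1 and 282 in C57BL/6 (0.07). Isg20, an exonuclease that degrades RNA, read 259 in DBA/1 and 229 in C57BL/6 (0.18). Centring on the median of all probe sets over the floor on both arrays, which subtracts 0.08, turned the sign of Ifi35 and not that of Isg20.

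The remaining measured members, Parp14, Trim25 and the nucleic acid sensors Ifih1 and Zbp1, differed by less than 2-fold. Parp14, an ADP-ribosyltransferase, read 262 in DBA/1 and 363 in C57BL/6 (log2 ratio -0.47). Trim25, a ubiquitin ligase that activates the RNA sensor RIG-I, read 379 in DBA/1 and 430 in C57BL/6 (-0.18). The brightest Trim25 probe set, used here, carries a suffix that marks possible cross-hybridisation. The dimmer Trim25 probe sets lay further apart, at -0.34 and, with 40.1 in DBA/1 and 74.3 in C57BL/6, at -0.89. Ifih1 (MDA5), a sensor of long viral RNA, read 198 in DBA/1 and 260 in C57BL/6 (-0.40). Zbp1, a sensor of Z-form nucleic acids, read 241 in DBA/1 and 258 in C57BL/6 (-0.10) on its brighter probe set. Its dimmer probe set read 90.8 in DBA/1 and 167 in C57BL/6 (-0.88), so the size of the Zbp1 difference depended on the probe set while its direction did not.

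Over all 7 members with more than 1 probe set, 8 of the 10 further probe sets were over the floor on both arrays, and all 8 read lower in DBA/1. Of all genes over the floor on both arrays, counted by their brightest probe set, 38.9% did. The same share over further probe sets of all genes was not computed. The 8 include the dimmer Jak1 probe sets, within the probe set error, and the dimmer Ifnar2 probe set, which opposes the brighter one. Probe sets of 1 gene share their RNA and array and are no replicates of a strain.

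**Figure D3:**
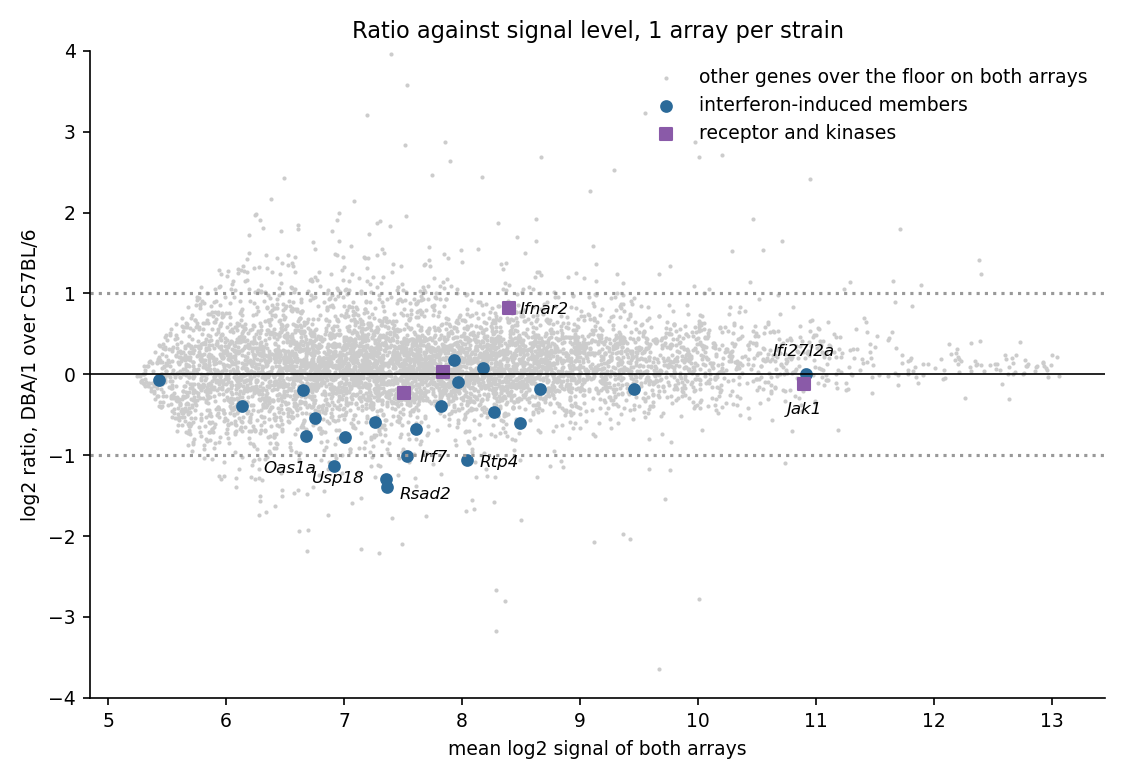
Log2 ratio of DBA/1 over C57BL/6 against mean log2 signal for all 6402 genes over the floor on both arrays (grey), with interferon-induced members as circles and the receptor and kinases as squares; dotted lines mark 2-fold. The 5 named circles under the lower dotted line lie in the crowded middle of the signal range, and Ifi27l2a and Jak1, the brightest members, lie close to 0.

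A list of 40 further interferon-stimulated genes that are not members was read beside them, with 31 measured. Of the 27 over the floor on both arrays, 21 read lower in DBA/1, beside 38.9% of all such genes, and the median log2 ratio was -0.32. Only 1 of the 27 was at least 2-fold lower, beside 1.64% of all such genes, and 1 gene is too few to compare with that share. Tap1, which carries peptides to MHC class I, read 311 in DBA/1 and 687 in C57BL/6 (-1.14). Ddx60, a helicase of the antiviral response, read 67.9 in DBA/1 and 130 in C57BL/6 (-0.94), and Bst2 (tetherin), which holds budding virions at the membrane, read 235 in DBA/1 and 394 in C57BL/6 (-0.74). Cmpk2, the kinase encoded next to Rsad2, was over the floor in C57BL/6 only and at least 2.14-fold lower in DBA/1.

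Interferon transcripts themselves were not measurable. All 7 measured alpha and beta interferon genes were under the floor on both arrays. Of 8 genes of the pathway that induces interferon and were over the floor on both arrays, 4 read lower and 4 higher in DBA/1, with a median of -0.07 that changed sign with the floor. The adaptor Mavs read 48.0 in DBA/1 and 72.0 in C57BL/6 (log2 ratio -0.59) and the kinase Tbk1 read 313 in DBA/1 and 464 in C57BL/6 (-0.57). Irf5 went the other way, with 139 in DBA/1 and 86.7 in C57BL/6 (0.68), as did the adaptor Myd88, with 472 in DBA/1 and 354 in C57BL/6 (0.41).

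The interferon gamma pathway had no common direction. Ifng, the cytokine, read 66.0 in DBA/1 and 173 in C57BL/6, 2.62-fold lower in DBA/1. Ciita, the MHC class II transactivator, read 204 in DBA/1 and 72.6 in C57BL/6, 2.81-fold higher. The chemokine Cxcl9 was over the floor in DBA/1 only (at least 1.49-fold higher), and the kinase Jak2 had a log2 ratio of 0.42. Irf1 and other members respond to both interferon types, which this comparison does not separate.

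The sorted samples carried Cd4 and other T cell transcripts at similar levels and RNA of other cells at different levels. Cd4 had a signal of 913 in DBA/1 and 857 in C57BL/6. The 7 measured genes of the CD4+ T cell marker list had a median log2 ratio of -0.04. Their summed signals were 10056 in DBA/1 and 10342 in C57BL/6. Besides Cd4, the list holds genes such as Cd3e that are common to T cells in general. All 9 neutrophil markers were at least 2-fold higher in DBA/1, beside 3.33% of all genes over the floor on both arrays. Their median ratio was 1.79 on the log2 scale, and their summed signals were 34395 in DBA/1 and 10579 in C57BL/6. All 6 monocyte and macrophage markers over the floor on both arrays were higher (median 0.84), beside 3913 of all 6402 such genes. Itgam and Cd14 were over the floor in DBA/1 only, and summed signals over the 8 were 5398 in DBA/1 and 2281 in C57BL/6. All 5 B cell markers over the floor on both arrays were higher too (median 1.09), with Blk over it in DBA/1 only, Pax5 under it on both, and summed signals over the 7 measured of 1518 in DBA/1 and 665 in C57BL/6. NK cell markers were mixed, with 1 of 3 lower. Tyrobp, which myeloid cells also express, read 2381 in DBA/1 and 1343 in C57BL/6. Klrd1 read 145 in DBA/1 and 470 in C57BL/6 (log2 ratio -1.69). Gzmb went the other way, with 127 in DBA/1 and 67.8 in C57BL/6 (0.91), and Ncr1 and Klra8 were under the floor on both arrays.

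Markers of CD8+ T cells and plasmacytoid dendritic cells read lower in DBA/1, in the direction of the interferon-induced genes. All 4 CD8+ T cell markers over the floor on both arrays did (median -1.01), beside 38.9% of all such genes. Among the 4, Cd8a read 52.9 in DBA/1 and 78.0 in C57BL/6 (log2 ratio -0.56). The others were Nkg7 (-1.92), Klrk1 (-1.06) and Ctsw (-0.97), which are not particular to CD8+ T cells. Cd8b1, at 16.1 in DBA/1 and 199 in C57BL/6, and Eomes were over the floor in C57BL/6 only, and the 6 had summed signals of 405 in DBA/1 and 1043 in C57BL/6. All 6 measured markers of plasmacytoid dendritic cells, the main producers of type I interferon, did as well (median -0.65, summed signals 1685 in DBA/1 and 2567 in C57BL/6). They included Ccr9 (-1.26), Spib (-1.03) and Bst2, which is itself interferon-stimulated, and T or B cells express several of them too. In RNA of a sorted bulk sample, fewer cells of a type and less RNA per cell cannot be told apart, and the part of these cells in the difference of the interferon-induced genes was not tested.

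**Figure D4:**
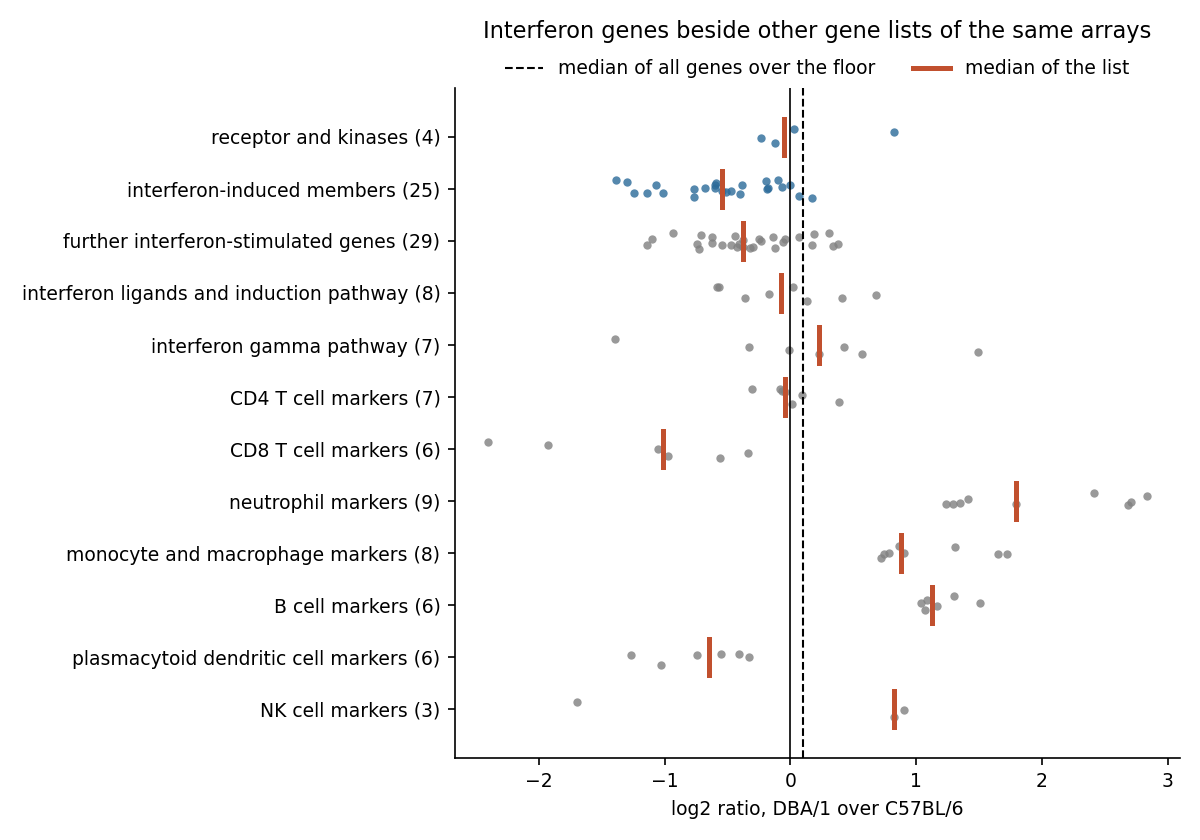
Log2 ratio of DBA/1 over C57BL/6 for each gene over the floor on at least 1 array, by list (number of genes in brackets; genes over it on 1 array stand at their bound), with the list median as a vertical bar and the median of all genes, 0.10, as a dashed line. The interferon-induced members (median -0.54, bounds included) lie lower than the receptor and kinases (-0.05), between the CD4+ T cell markers (-0.04) and the CD8+ T cell markers (-1.01).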

How the data were processed

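RNA of splenic CD4+ T cells (3 µg per sample) was copied into biotin-labelled cRNA from an oligo(dT) primer and hybridised to 1 array per strain, per the labels' protocols. The authors deposited linear intensity values; MAS5 is named in the submitters' processing notes, with no version and no scaling target. Trimmed by 2% at both ends, the mean signal was 146 in DBA/1 and 136 in C57BL/6. Values were used as deposited.

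Of the 22626 probe sets that are not controls, 20380 had 1 gene symbol in the platform annotation, 691 several and 1555 none; only the first were named. Of the resulting 12393 genes, 12377 symbols were in the RefSeq table of GRCm38.p6. Each gene was represented by its brightest probe set (mean log2 signal). Signals under each array's median were set to it. With 1 array per strain no test was run; the number of arrays limits the precision of every value. Genes were counted by direction and at 2-fold. All members were named, with up to 4 genes of each other list by size of ratio. The members and lists were chosen with earlier results of these data known. The calculation was tested on simulated arrays. The 10 alternatives are in the closing section. Work was done in Python 3.11.15 with pandas 2.3.3 and statsmodels 0.14.6.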

Additional observations from a re-analysis of the deposited data

How the results depend on the processing

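The alternatives were median centring, quantile normalization and lowess (span 0.3) between arrays, no floor beyond a signal of 1, floors at percentiles 25 and 60, log2(signal + 32), the mean over probe sets, omission of probe sets with suffixes that mark possible cross-hybridisation, and a minimum signal at percentile 75. Over these the median log2 ratio of the members ranged from -0.56 to -0.33, that of the interferon-induced members from -0.63 to -0.49, that of the receptor and kinases from -0.18 to -0.05 and that of the further interferon-stimulated genes from -0.46 to -0.29. Between 17 of 21 and 27 of 29 members read lower in DBA/1, and 0 were at least 2-fold higher under any of the 10. The number at least 2-fold lower was 6, Oasl2 included as a bound; it was 3 with log2(signal + 32), namely Rsad2, Usp18 and Oas3, of which Oas3 was not among the 6, and 9 without a floor. Rsad2 and Usp18 were at least 2-fold lower under all 10 alternatives. Of the 29 members, 25 read lower under every setting that gave a value, Isg20 read higher under all, and Ifnar1, Ifnar2 and Ifi35 took both signs. The share of all genes at least 2-fold lower in DBA/1 was 1.90% as deposited, 11.1% without a floor, 4.81% when the floor was percentile 25, and 1.21% on the log2(signal + 32) scale. No paired analysis was possible because there is 1 array per strain. Signals near the floor limit Socs1, Mx1, Mx2, Oas3, Oasl1 and Oasl2.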

Other observations

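Not all interferon-stimulated genes outside the set read lower in DBA/1. Among the 27 further ones over the floor on both arrays, 6 read higher there, named here after their values were seen. Nmi, which pairs with IFI35, read 771 in DBA/1 and 592 in C57BL/6 (log2 ratio 0.38), and Tdrd7 read 81.7 in DBA/1 and 64.6 in C57BL/6 (0.34). The immunoproteasome subunits Psmb9 and Psmb8 had log2 ratios of 0.31 and 0.18, where Tap1, encoded beside them, had -1.14. Samhd1, which depletes nucleotides needed by viruses, lay at 0.18 and Plscr1 at 0.07. The ratios of Nmi and Tdrd7 exceeded the probe set error of 0.31, and that of Psmb9 lay at it.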
